A study of Mus musculus with 4 samples.

Results

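The miR-297, miR-466, miR-467 and miR-669 families are mouse miRNAs whose genes lie for the most part as a tandem array inside Sfmbt2. They were taken here as every probe whose first name on the array begins with one of those 4 family names, whatever the letter or arm. This gave 72 of 1096 mouse miRNA probes: 27 of miR-466, 27 of miR-669, 13 of miR-467 and 5 of miR-297. Of these, 7 probes name several miRNAs, and the 72 probes carry 81 names. Names are given without the species prefix, with the star of a passenger strand kept as printed on the array.

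Small intestine was taken from Tlr3-/- and Tlr3+/+ mice at 6 hr after 10 Gy of total body gamma-irradiation, and from Tlr3-/- and Tlr3+/+ mice that were not treated (0 hr). Tlr3 encodes a receptor for double-stranded RNA. Each of the 4 groups had 1 array with total RNA pooled from 3 mice, so no group has a replicate. Going by the array identifiers, 1 slide carried both non-treated arrays and 2 further slides carried 1 irradiated array each. Slide therefore cannot be told apart from irradiation, nor from genotype at 6 hr. No array held untreated intestine at 6 hr. The sources used here do not give the Tlr3 allele, the strain or the age of the mice.

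Sfmbt2 encodes a Polycomb group protein and is imprinted in mouse, with expression from the paternal copy in extraembryonic tissue. The miRNAs of its intron arose by repeated duplication, are known from placenta and embryonic stem cells, and the cluster is needed for normal growth of the mouse placenta. Because of those duplications many members differ from each other by few bases, and several genes can yield the same mature miRNA. The array counts probes, not genes, so each value below belongs to a probe with the names printed on it.

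The RefSeq gene table for GRCm38.p6 places 72 of the 82 genes of these families inside the Sfmbt2 gene on chromosome 2, and no miRNA gene of another family there. The other 10 genes lie on 7 other chromosomes. Traced from probe names to genes, 57 probes belong only to genes inside Sfmbt2, 9 only to genes elsewhere, and 5 to genes of both kinds. The remaining probe, miR-297a-5*, matched no gene in the table. The name Sfmbt2 cluster therefore holds for most probes, but not for miR-466i-5p, miR-466i-3p, miR-466j, miR-466k, miR-466q, miR-467f, miR-467g, miR-467h and miR-669n.

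RefSeq gives a mature sequence under the array's exact name for 8 probes, all of them from genes outside Sfmbt2. They are shown for the simple repeats that these 8 hold, with the seed (bases 2 to 8) in capitals, in order of mean raw intensity. Sequences of probes from genes inside Sfmbt2 were not examined.
miR-466i-3p: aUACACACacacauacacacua
miR-467f: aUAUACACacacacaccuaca
miR-466j: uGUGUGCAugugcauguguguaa
miR-467g: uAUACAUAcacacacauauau
miR-669n: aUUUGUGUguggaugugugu
miR-466q: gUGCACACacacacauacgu
miR-467h: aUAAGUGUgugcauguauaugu
miR-466k: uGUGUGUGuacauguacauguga

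In GRCm38.p6 these sequences lie at chr13:17747552-17747573 (+ strand, miR-466i-3p), chr11:69635419-69635439 (- strand, miR-467f), chr10:60960802-60960824 (+ strand, miR-466j) and chr5:34732872-34732892 (- strand, miR-467g). The others lie at chr3:115979905-115979924 (+ strand, miR-669n), chr3:28419988-28420007 (+ strand, miR-466q), chr9:115381898-115381919 (+ strand, miR-467h) and chr3:85467396-85467418 (+ strand, miR-466k). The 8 seeds were all different, so none of the 8 shares its seed with another, and 0 of the 316 other array miRNAs with a RefSeq sequence shared one of them. The sequences instead share runs of alternating bases. Read on the miRNA strand only, miR-466i-3p, miR-467f, miR-467g and miR-466q hold CACACA, and miR-466j, miR-669n, miR-467h and miR-466k hold UGUGUG. One or the other motif occurred in 8 of 8 members and in 8 of the 316 other array miRNAs (2.53%). The motifs describe the repeats of these same 8 sequences, so the 8 of 8 follows from their choice and is no test. The repeat runs were 12 bases in miR-467f and miR-466q, 11 in miR-466i-3p and 9 in miR-467g and miR-466k. They were 8 bases in miR-669n and 7 in miR-466j and miR-467h. The longest stretch common to 2 members was the 14 bases ACACACACACAUAC of miR-466i-3p and miR-466q. Whether a probe also bound miRNAs other than those it names was not tested.

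The tissue label was checked against markers, and the members' signals were then set against the controls. All 8 epithelial miRNAs (miR-192, miR-194, miR-215 and the miR-200 family) were detected on every array, with summed raw intensities of 16234 to 19328. Both smooth muscle markers (2 of 2) and all leukocyte markers (4 of 4) were also detected on every array. The red cell miRNA miR-451 read 82.7 in irradiated Tlr3-/-, 129 in irradiated Tlr3+/+, 171 in non-treated Tlr3-/- and 42.3 in non-treated Tlr3+/+ intestine. The other red cell miRNAs did not follow it: miR-486 read 38.5, 34.4, 33.4 and 30.7 in the same order. miR-144, detected on 3 arrays, read 29.5, 25.2, 26.7 and 26.6. The part of red cells in the members' values was not tested. Of the striated muscle markers, miR-133a and miR-1a were detected on 4 arrays and miR-206 on 1. Of 3 liver and pancreas markers, each was detected on 1 or 2 arrays and none on all 4. Blank spots averaged 27.3 on the irradiated Tlr3-/- array, 24.7 on the irradiated Tlr3+/+ array, 24.9 on the non-treated Tlr3-/- array and 24.5 on the non-treated Tlr3+/+ array. A probe was called detected above the blank mean plus 2 SD, at 29.2, 26.1, 26.5 and 25.8 in the same order. The 3 negative controls, with 8 spots each, had a pooled spot SD of 1.27, 1.43, 1.03 and 1.49, and the blank spots had an SD of 0.928, 0.703, 0.804 and 0.624. Both are technical errors at this brightness and leave out the spread between mice.

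All 72 members were dim. Detection called 53 members in irradiated Tlr3-/- intestine, 52 in irradiated Tlr3+/+ intestine, 50 in non-treated Tlr3-/- intestine and 54 in non-treated Tlr3+/+ intestine. These shares of 73.6%, 72.2%, 69.4% and 75% stand beside 64.9%, 71.0%, 65.8% and 71.1% of all mouse miRNA probes. On all 4 arrays, 41 of the 72 members (56.9%) were detected, against 573 of 1096 mouse probes (52.3%), 21 were detected on 1 to 3 arrays and 10 on none. No member reached 3 times the threshold on any array, a level that 9.58% to 10.7% of mouse probes passed on each. The median raw intensity of the members was 31.1, 28.4, 27.8 and 27.5 in the same order of arrays, and that of all mouse probes was 30.5, 27.8, 27.7 and 27.2. A detected call at this level is close to the controls: single negative control spots read up to 31.7, 30.4, 28.6 and 31.9. On all 4 arrays 12 members (16.7%) lay above the highest such spot, against 26.0% of mouse probes. In a whole tissue, fewer cells that make a miRNA and less of it per cell cannot be told apart.

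**Figure D1:**
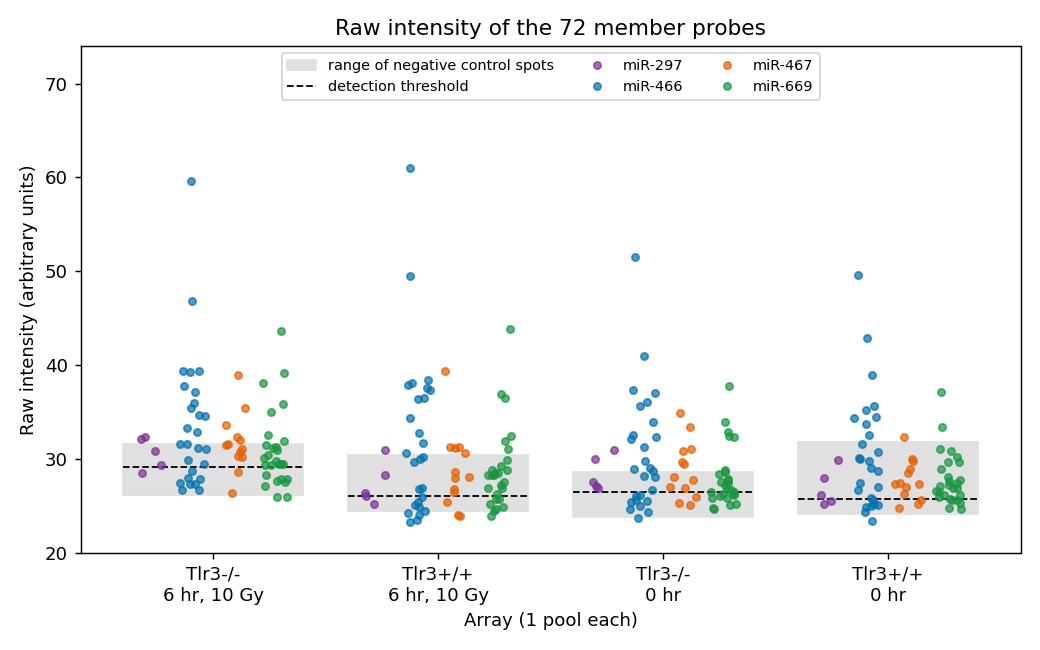
Raw intensity (arbitrary units, linear axis) of each of the 72 member probes on the 4 arrays, coloured by family. The dashed line is the detection threshold of that array and the grey band the range of its negative control spots. Most points fall inside or just above the band, and the highest point is miR-466i-5p at 61.1 in irradiated Tlr3+/+ intestine.

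Detection was spread over the families. On all 4 arrays it covered 16 of 27 miR-466 probes, 13 of 27 miR-669 probes, 9 of 13 miR-467 probes and 3 of 5 miR-297 probes. By position it covered 28 of the 57 probes from genes inside Sfmbt2 only, 7 of the 9 from genes elsewhere only and 5 of the 5 with genes of both kinds. By the arm in the probe's name it covered 12 of 14 star strands, 11 of 16 3p arms, 6 of 17 5p arms and 12 of 25 probes with no arm in the name. No share by arm was counted over all mouse probes, so a preference for star strands cannot be read from these counts. All 5 star strands of miR-467a to miR-467e were detected on every array, and of the opposite strands miR-467a and miR-467c were. The 10 members detected nowhere were miR-466a-5p, miR-466e-5p, miR-466k, miR-466l-5p, miR-466n-3p, miR-466p-5p, miR-467d, miR-669g, miR-669h-5p and miR-669i. For comparison, the Dlk1-Dio3 cluster, another imprinted array of miRNA genes, had 36 of 96 probes (37.5%) detected on all 4 arrays, with no test of the difference.

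The highest signals came from a few miR-466 and miR-669 probes. miR-466i-5p read 59.7 in irradiated Tlr3-/- intestine, 61.1 in irradiated Tlr3+/+, 51.5 in non-treated Tlr3-/- and 49.6 in non-treated Tlr3+/+, which placed it at rank 149 among mouse probes by mean raw intensity. Both irradiated arrays lay above both non-treated ones. It is the opposite arm of miR-466i-3p shown above, from a gene on chromosome 13 and not from Sfmbt2. Its highest signal was 2.34 times the threshold of its array. Intensities of different probes do not rank the miRNAs by abundance, because each probe binds with its own strength.

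Next stood miR-466h-3p, from a gene inside Sfmbt2, with 46.9 in irradiated Tlr3-/-, 49.5 in irradiated Tlr3+/+, 41.0 in non-treated Tlr3-/- and 42.9 in non-treated Tlr3+/+. The other arm of its hairpin, miR-466h-5p, which is known to promote apoptosis in cultured mouse and hamster cells, read 37.1, 36.6, 32.5 and 32.6 in the same order. Both arms were higher on both irradiated arrays than on both non-treated ones. miR-669c*, also from inside Sfmbt2, read 43.6, 43.9, 37.8 and 37.2, again with no overlap in raw intensity between irradiated and non-treated arrays. The opposite strand, miR-669c, read 29.5, 28.9, 27.8 and 29.7, so its irradiated and non-treated values overlapped. Raw values without overlap were not particular to the probes named so far. Other members had them too, among them miR-466f-5p, miR-466f, miR-466i-3p, miR-467f, miR-669f-5p, miR-466j, miR-466m-3p, miR-669p* and the probe for miR-466m-5p and miR-669m-5p. Less the blank mean, miR-466f-5p read 12.0 at 6 hr and 12.5 at 0 hr in Tlr3-/-, so its values then overlapped. Of all mouse probes, 91.4% in Tlr3-/- and 58.1% in Tlr3+/+ were higher in raw intensity at 6 hr. The share of all probes without overlap was not counted, so a lack of overlap does not set these members apart.

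miR-466f-3p read 37.8 in irradiated Tlr3-/-, 38.4 in irradiated Tlr3+/+, 37.1 in non-treated Tlr3-/- and 39.0 in non-treated Tlr3+/+, so the groups overlapped. Its genes lie both inside Sfmbt2 and on another chromosome. miR-467f, whose CA repeat is shown above, read 39.0, 39.4, 35.0 and 32.4 in the same order, the lowest value being that of non-treated Tlr3+/+. The remaining 5 of the 10 brightest were miR-466f-5p, miR-466f, miR-466i-3p, miR-669f-5p and the probe for miR-466m-5p and miR-669m-5p, with raw intensities of 33.5 to 39.4. Raw intensity was higher at 6 hr than at 0 hr for 10 of the 10 in Tlr3-/- and for 9 of the 10 in Tlr3+/+, and for 71 and 52 of all 72 members. Among mouse probes no brighter than the brightest member the shares were 95.4% in Tlr3-/- and 61.4% in Tlr3+/+. The blank mean was also higher on the irradiated Tlr3-/- array (27.3) than on the non-treated one (24.9). With the blank mean subtracted, 42 of 72 members (58.3%) were higher at 6 hr in Tlr3-/- and 49 of 72 (68.1%) in Tlr3+/+, beside 57.9% and 57.1% of those probes.

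**Figure D2:**
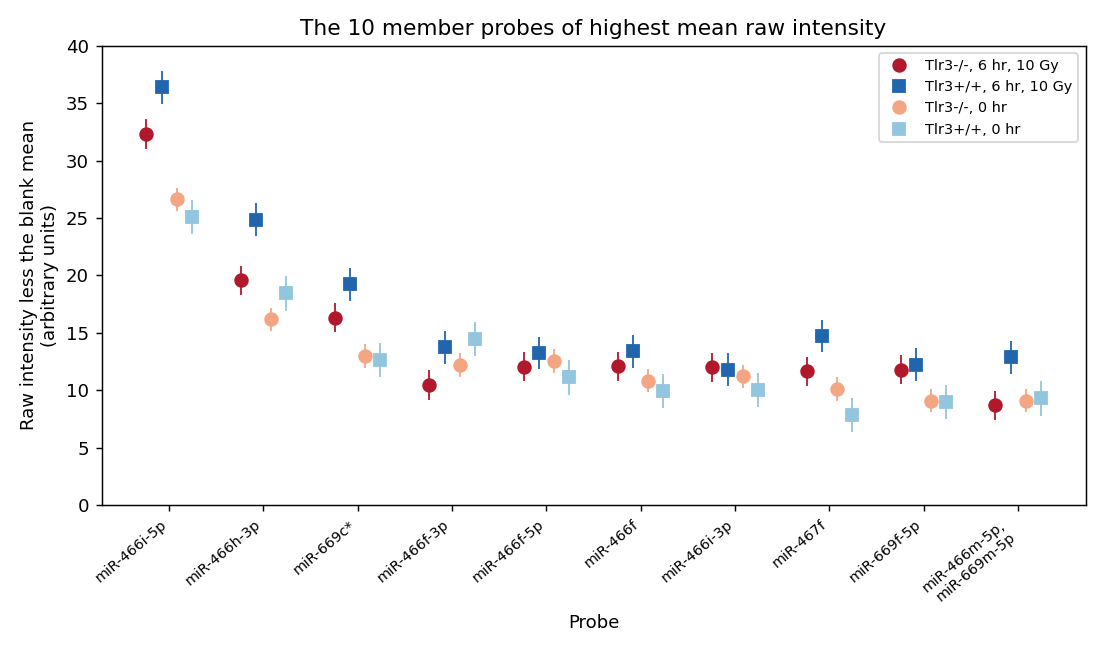
Raw intensity less the blank mean of its array (arbitrary units, linear axis) for the 10 member probes of highest mean raw intensity, in order of that mean, with irradiated arrays in dark and non-treated arrays in light colours. Bars are 1 pooled SD of the negative control spots of that array, a technical error only. miR-466i-5p stands at 32.3 and 36.4 on the irradiated Tlr3-/- and Tlr3+/+ arrays, against 26.6 and 25.1 on the non-treated ones, while miR-466f-3p does not stand higher at 6 hr in either genotype.

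The response to irradiation was compared within each genotype on normalized intensities, as log2 ratios of 6 hr over 0 hr for probes detected on both arrays. In Tlr3-/- intestine 0 of 46 members were 2-fold or more higher and 0 were lower by as much, where 0.48% and 0.16% of all 625 compared mouse probes were. In Tlr3+/+ intestine 0 of 47 members were 2-fold higher and 0 were 2-fold lower, where 1.76% and 0% of all 680 were. The members' log2 ratios ran from -0.09 to 0.09 in Tlr3-/- (median -0.0013) and from -0.10 to 0.14 in Tlr3+/+ (median 0.0070), and the medians of all compared probes were -0.0014 and -0.0098. Above 0 stood 22 of 46 members in Tlr3-/- and 28 of 47 in Tlr3+/+, next to 46.2% and 41.6% of all compared probes. The normalization adds an offset of 50 to signals that exceed the blank by at most 36.4. All member values then lay between 5.66 and 6.39 on the log2 scale, a span of 0.74. Even the brightest member could not have fallen 2-fold, and a 2-fold rise needed a large gain in signal. miR-451 read 42.3 in non-treated and 129 in irradiated Tlr3+/+ intestine, and its log2 ratio there was 1.10. The counts of 0, here and between genotypes, show only that no member had so large a gain. They carry no information on falls or on smaller changes. The percentages beside them come from brighter probes.

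The highest ratios in Tlr3-/- intestine were miR-466i-5p (0.09), miR-669b* (0.08), miR-466g (0.07), miR-669e* (0.05) and miR-669d* (0.04), and the lowest were the probe for miR-466b-3p, miR-466c-3p and miR-466p-3p (-0.09), miR-466f-3p (-0.08), miR-466f-5p (-0.06), miR-467e* (-0.05) and miR-669k* (-0.05). In Tlr3+/+ intestine the highest were miR-466i-5p (0.14), miR-467c* (0.11), miR-467f (0.10), miR-466h-3p (0.10) and miR-669p* (0.08). The lowest there were miR-466f-3p (-0.10), the probe for miR-297b-3p, miR-297a* and miR-297c* (-0.06), miR-669c (-0.04), miR-467a (-0.03) and the probe for miR-466b-3p, miR-466c-3p and miR-466p-3p (-0.02). For scale, repeated spots of the spike controls, which are far brighter, had an SD of 0.104 on this log2 scale. Its size was passed by 0 of 46 members in Tlr3-/- and by 2 of 47 in Tlr3+/+, miR-466i-5p and miR-467c*, against 20.6% and 27.4% of all compared probes, which include far brighter ones.

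**Figure D3:**
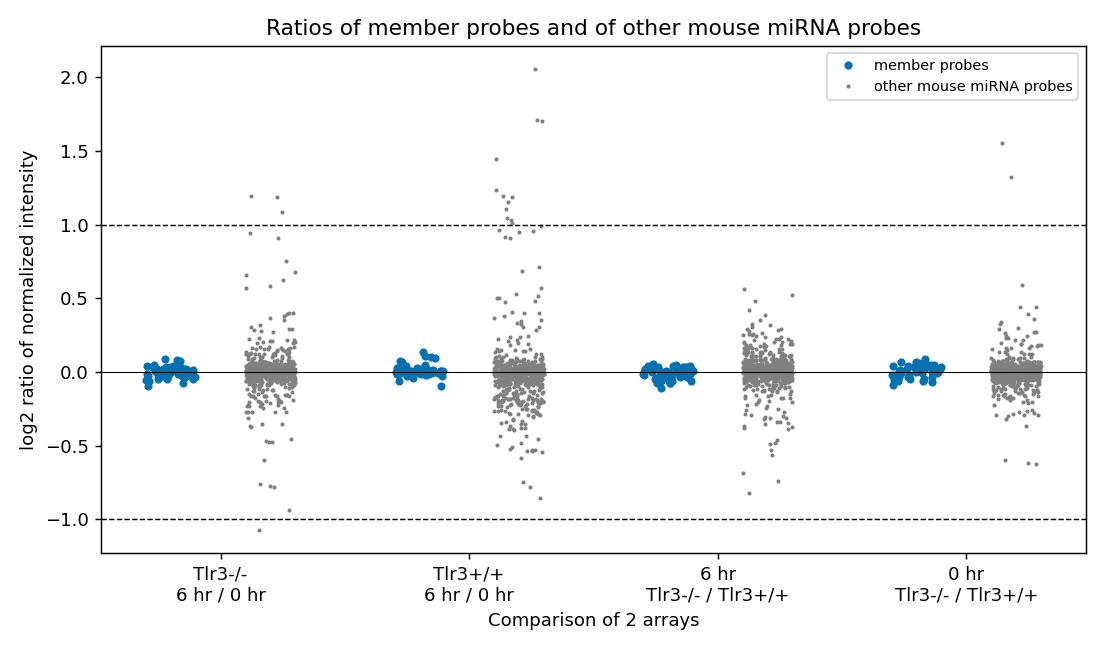
Log2 ratios of normalized intensity for member probes (blue) and other mouse miRNA probes (grey) in the 4 comparisons of 2 arrays, each point a probe detected on both. Dashed lines mark 2-fold. Members stay between -0.11 and 0.14, and the points beyond the lines are all other probes; member values span too little for a 2-fold ratio.

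A limit was added after the values were seen. It was a difference in raw intensity less the blank mean above 2 times the combined SD of the negative control spots of both arrays. No scaling between arrays was applied, and the spread of spots brighter than the negative controls did not enter the limit. In Tlr3-/- intestine, where the limit was 3.27 units, 4 of 46 members were higher at 6 hr and 0 lower. Over all probes compared, of every brightness, 20.6% were higher and 9.92% lower, and over probes no brighter than the brightest member 10.9% and 2.94%. In Tlr3+/+ intestine, where the limit was 4.13 units, 6 of 47 members were higher and 0 lower, beside 16.5% and 14% of all probes and 11.5% and 3.01% of the dimmer ones. The members' shares, 8.70% in Tlr3-/- and 12.8% in Tlr3+/+, are thus near those of probes of like brightness.

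Past that limit in both genotypes were 3 of the 41 members detected on all 4 arrays, where 13.3% of all such probes and 7.76% of the dimmer ones were. The 3 were miR-466i-5p, higher by 5.71 units in Tlr3-/- and 11.3 in Tlr3+/+, miR-466h-3p, by 3.39 and 6.44, and miR-669c*, by 3.34 and 6.55. These 3 are also the members of highest mean raw intensity, while single negative control spots read at most 31.9. Whether such differences grow with brightness was not tested. miR-466g passed the limit in Tlr3-/- with a difference of 3.36, next to 1.85 in Tlr3+/+. miR-467f (6.86), miR-669p* (5.32) and miR-467c* (4.77) passed it in Tlr3+/+, with differences of 1.53, 2.70 and 1.44 in Tlr3-/-. No array enters both of these comparisons. miR-467c* read 26.3 on the non-treated Tlr3+/+ array, next to a threshold of 25.8 and a negative control spot SD of 1.49.

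**Figure D4:**
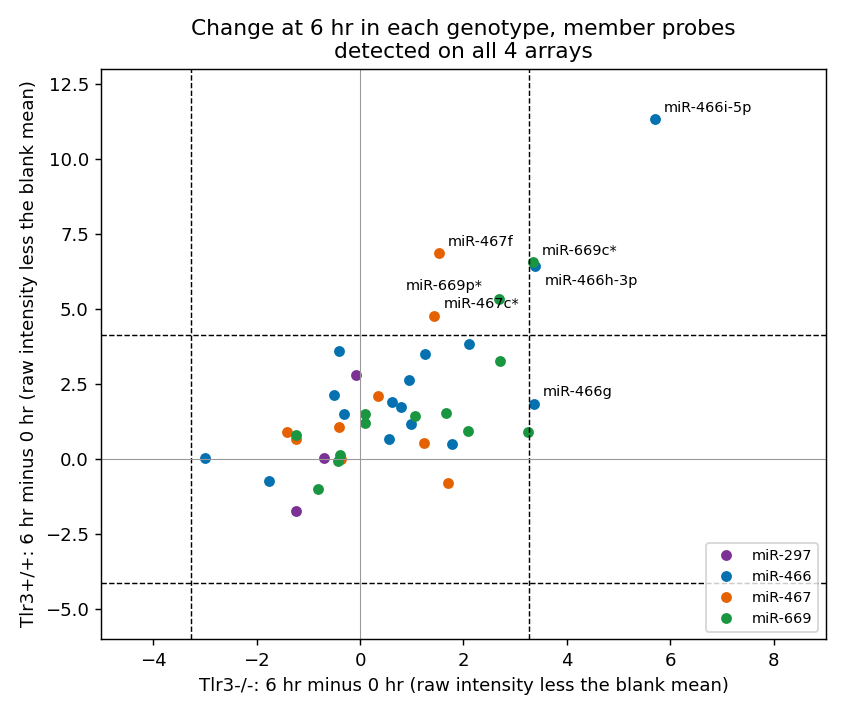
Change in raw intensity less the blank mean, 6 hr minus 0 hr (arbitrary units), in Tlr3-/- (horizontal axis) and Tlr3+/+ intestine (vertical axis) for the 41 members detected on all 4 arrays, coloured by family. Dashed lines mark 2 combined SD of the negative control spots, at 3.27 and 4.13 units. miR-466i-5p, miR-466h-3p and miR-669c* lie past both upper lines, and no member lies past a lower one.

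The genotypes were compared at each time, on the arrays already used for irradiation. At 6 hr, with the same span of values, 0 of 47 members were 2-fold higher and 0 were 2-fold lower in Tlr3-/- than in Tlr3+/+ intestine, where 0% and 0% of all 645 compared mouse probes were. The members' log2 ratios ran from -0.11 to 0.06 with a median of -0.0027, beside 0.0075 for all compared probes. The lowest were miR-466h-3p (-0.11), miR-669n (-0.08), miR-466c-5p (-0.07), miR-466m-3p (-0.07) and miR-669e (-0.06), and the highest miR-467g (0.06), miR-669f-3p (0.05), miR-669b* (0.04), miR-669o-5p (0.04) and the probe for miR-669a-3p and miR-669o-3p (0.04). Past 2 SD of the negative control spots, here 3.83 units, were 4 lower members and 0 higher ones. Of all probes compared 14.3% were lower and 16.3% higher, and of those no brighter than the brightest member 8.65% and 3.82%. The 4 were miR-466h-3p, with a difference of -5.30 units, miR-466m-3p with -4.56, the probe for miR-466m-5p and miR-669m-5p with -4.18, and miR-466i-5p with -4.07.

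In non-treated intestine 0 of 44 members were 2-fold higher and 0 were 2-fold lower in Tlr3-/- than in Tlr3+/+, where 0.305% and 0% of all 656 compared probes were. The log2 ratios ran from -0.09 to 0.09 (median 0.0028). The highest were miR-467g (0.09), miR-669f-3p (0.07), miR-467f (0.07), miR-467e* (0.06) and miR-466f-5p (0.05), and the lowest miR-466m-3p (-0.09), miR-466f-3p (-0.07), miR-669c (-0.06), miR-466g (-0.06) and miR-669n (-0.06). Past the limit of 3.63 units were 0 of 44 members in either direction, beside 13.3% higher and 8.54% lower of all probes, and 1.97% and 2.36% of the dimmer ones. miR-466m-3p and miR-669n were among the 5 lowest ratios at both times, and miR-467g and miR-669f-3p among the 5 highest at both times. Raw intensity of miR-466m-3p was 35.4 in Tlr3-/- and 37.3 in Tlr3+/+ at 6 hr, and 32.3 in Tlr3-/- and 35.3 in Tlr3+/+ at 0 hr. That of miR-669n was 31.2 in Tlr3-/- and 31.9 in Tlr3+/+ at 6 hr, and 28.6 in Tlr3-/- and 30.3 in Tlr3+/+ at 0 hr.

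The irradiation ratios of the genotypes were set against each other for the 41 members detected on all 4 arrays. The difference of log2 ratios, Tlr3-/- minus Tlr3+/+, reached 1 or -1 in 0 members in either direction, where 0% and 0.524% of all 573 probes did. It ran from -0.10 to 0.07 with a median of -0.02, beside 0.0072 for all probes. The lowest differences were those of miR-467f (-0.10), miR-467c* (-0.08) and the probe for miR-466b-3p, miR-466c-3p and miR-466p-3p (-0.07), and the highest those of miR-669b* (0.07), miR-467a (0.07) and miR-466g (0.06). No difference was tested, since each combination of genotype and time held 1 array.

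A limma fit with terms for irradiation and genotype was run on the 797 mouse probes detected on at least 2 arrays, 60 of them members. It has 1 residual degree of freedom, which is the disagreement between the genotypes in their change and not a spread between pools. For irradiation 0 of 60 members passed an adjusted p of 0.05, as did 0% of all probes, and 2 of 60 had an unadjusted p below 0.05, where 12.4% of all probes had one. These were miR-466i-5p, with a log2 change of 0.11 ± 0.02 (SE) and an adjusted p of 0.318 by limma, higher at 6 hr in both genotypes, and miR-466f-3p, with -0.09 ± 0.02 and an adjusted p of 0.339 by limma, lower in both. For genotype 0 of 60 members passed, as did 0% of all probes, and 1 of 60 had an unadjusted p below 0.05, where 4.77% of all probes had one. It was miR-466m-3p, with a log2 change of -0.08 ± 0.02 in Tlr3-/- and an adjusted p of 0.772 by limma.

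The authors' own normalized values spread the members more widely. In the authors' values miR-669b* was the one member at least 2-fold higher at 6 hr in Tlr3-/- (log2 1.25), and miR-467c* the one in Tlr3+/+ (1.66), where 2.88% and 7.06% of all probes passed. None was 2-fold lower in either genotype (0 of 46 and 0 of 47), where 3.2% and 3.68% of all probes were. At 6 hr 5 members were at least 2-fold lower in Tlr3-/- than in Tlr3+/+: miR-669e (-1.29), miR-669c (-1.10), miR-669n (-1.04), miR-669k* (-1.04) and miR-466c-5p (-1.02), next to 4.5% of all probes, and 0 were higher, next to 2.17%. At 0 hr 2 were, miR-669e* (-1.03) and miR-669c (-1.02), next to 2.74%, and 0 were higher, next to 1.07%. The difference of irradiation ratios in the authors' values reached 1 in 2 of 41 members, miR-467a and miR-669b*, and -1 in 1, miR-467c*, next to 5.58% and 5.76% of all probes. On at least one array of each pair these probes exceeded the blank mean by 1.75 to 3.85 units. For miR-466i-5p the authors' values gave 0.12 in Tlr3-/- and 0.30 in Tlr3+/+ for 6 hr over 0 hr.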

How the data were processed

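Total RNA was labelled with the dye Hy5, per the labels' protocols, and hybridised 1 sample per array in 1 colour. No scanner or quantification software is named in the labels. For 3136 spots, 1818 of them blank, the authors deposited raw intensity, background-subtracted intensity and globally normalized intensity, per the file headers. The authors' series value table holds the same normalized intensity on a linear scale (largest difference 0.011, median 25 on each array), uncentred. Empty cells in the authors' values matched a threshold of the blank mean plus 2 SD, after 5% of blanks was left out at each end, with 0 differences.

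Raw intensity was corrected by normexp with blank spots as negative controls and an offset of 50 (limma 3.58.1, R 4.3.3), quantile normalized over 1135 miRNA probes, 39 of them viral, and put on the log2 scale. Ratios of 2 arrays carry no test. The limma fit used eBayes and Benjamini-Hochberg adjustment over all mouse probes tested. Its steps were run on simulated arrays to check the direction of known changes. The simulation held no spread between pools or slides, so it does not show whether the fit could call dim members. Among members, the text names the 10 brightest, the 5 members at either end of each comparison and the 3 at either end of the difference. Other names were chosen after their values were seen. Members, lists and tests were chosen with earlier results of these data known. Sequences are from RefSeq (GRCm38.p6), matched by exact name.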

Additional observations from a re-analysis of the deposited data

How the results depend on the processing

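No paired analysis was possible because each group holds 1 array and the labels carry no replicate numbers, and no array could be left out for the same reason. The 2-fold counts of 0 do not show stability. In the main processing no member could fall 2-fold, and only a large gain in signal would reach a 2-fold rise. Member values spanned 0.74 on the log2 scale there, and 0.78 to 0.99 under median, 75th percentile, cyclic loess and spike scaling. With an offset of 16 and with no background correction the span was 1.61 and 1.32, and the counts were also 0. No member passed 3 times the detection threshold, so that filter gave 0 members detected on all 4 arrays and no ratio or fit. In the authors' values the members past 2-fold were 1 higher and 0 lower with irradiation in each genotype, 5 lower in Tlr3-/- at 6 hr, 2 lower at 0 hr, and the difference reached 1 in 2 members and -1 in 1. Their medians there were -0.0023 for irradiation in Tlr3-/-, 0.09 in Tlr3+/+, -0.27 for genotype at 6 hr, -0.16 at 0 hr and -0.14 for the difference, where all probes stood at -0.03, -0.15, -0.08, -0.17 and 0.06. Scaled to the spike controls, the medians were 0.15 for irradiation in Tlr3-/-, -0.25 for genotype at 0 hr and 0.15 for the difference, and all probes shifted alike, to 0.15, -0.25 and 0.17. With 2 SD of the negative control spots as the limit, chosen after seeing the data, 4 members were higher with irradiation in Tlr3-/-, 6 in Tlr3+/+, and 4 were lower in Tlr3-/- at 6 hr. Limma called 0 members in each setting it was run in. Ratios of named members lie near 0, so a scaling that shifts all probes alike turns their signs by construction. Signal near background limits all of these values.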
